A study of Danio rerio with 11 samples.

Results

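The genes described are 36 zebrafish genes of the cell division cycle, listed by name: 17 that act in DNA replication, 18 that act in mitosis, and ccnd1, the cyclin D of G1. They matched 38 of the 23617 gene identifiers in the count table, because rrm2 and mcm6 have 2 identifiers each. The table of gene names gave the symbol of 30 of these identifiers in the upper-case style of human genes and of 8 in zebrafish style. All 38 passed the filter on low counts and were among the 20886 genes tested, 19 of them in replication and 18 in mitosis. Each library held RNA from a pool of 5 embryo tails, cut behind the yolk sac at 24 hours post fertilisation (hpf). Line 23095 gave 3 libraries of lsd1 mutants (replicates 1, 2 and 4) and 2 of wildtype siblings, and line 36433 gave 3 of lsd1 mutants and 3 of wildtype siblings. What lesion each line carries was not given in the labels. Nothing in the labels says that pools came from separate clutches, so the p-values measure only the spread between these pools.

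Before S phase, the origin recognition complex with Cdc6 and Cdt1 loads the Mcm2-7 helicase onto DNA. In S phase GINS activates that helicase, primase and DNA polymerase alpha start each new strand, the sliding clamp Pcna holds the polymerases, and ribonucleotide reductase and thymidylate synthase supply the building blocks. Mitosis is driven by Cdk1 with cyclins A and B and by Polo and Aurora kinases, and is held back by the spindle checkpoint until kinetochores are attached. In the zebrafish tail at this stage, proliferating progenitors of the tailbud and neural tube lie beside somite muscle, most of which has left the cell cycle. Lsd1, encoded by kdm1a, is a histone demethylase.

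Library totals ran from 8204459 to 17195875 counts, and levels are given as CPM, counts scaled to library size with TMM factors, which do not correct for gene length and so do not rank genes against each other. Transcripts of kdm1a stood at 36.9, 34.2 and 34.8 CPM in the 36433 mutants, against 162, 155 and 135 CPM in the 36433 wildtypes. They stood at 130, 170 and 130 CPM in the 23095 mutants, against 124 and 142 CPM in the 23095 wildtypes, so their level set mutants apart from wildtypes in line 36433 and did not do so in line 23095. Posterior hox genes, the mark of tail tissue, were detected in every library: 12 of 12 markers had counts throughout. The summed level of the head markers was 50.7 to 77.5 CPM, with up to 3 of 9 identifiers, of otx1, rx3, foxg1a and six3b, at 0 in a library. Most of that sum came from the 2 identifiers matched to pax6b, with 27.0 to 45.8 and 10.4 to 20.5 CPM. The marker emx3 had 5.32 to 14.5 CPM, and every other head marker stayed at or under 2.56 CPM. Which tissue the counts of these markers came from was not tested. Across all tested genes, 23095 mutant replicate 2 stood apart from its group, with the lowest total and correlations of 0.957 and 0.958 with the other 23095 mutants, against 0.965 to 0.982 within the other groups and 0.973 between the other 23095 mutants. It held the highest value of all 11 libraries for 7 members and the lowest for 7 others.

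No member was called at an adjusted p under 0.05 in any of the 5 comparisons made (edgeR's quasi-likelihood F-test, Benjamini-Hochberg over all tested genes). The background was 0.168% of all tested genes called between mutants and wildtypes of line 36433, 1.63% in line 23095, 2.33% for the mutant effect averaged over both lines, 0.00958% for the difference between the lines' mutant effects, and 0.393% between the wildtypes of the 2 lines. By the same edgeR test, the smallest adjusted p of a member was 0.0795 in line 36433, 0.249 in line 23095, 0.147 on average, 0.407 for the difference and 0.143 between the wildtypes. At an unadjusted p under 0.05 the counts were 2 lower in line 36433, 1 higher in line 23095, 1 lower on average, 1 higher for the difference, and 17 lower with 1 higher between the wildtypes. DESeq2 called 1 member in line 36433 (rrm2 ENSDARG00000078069) and 1 between the wildtypes (kif23), and 0 in the other comparisons. Over all 20886 genes it called 85 higher and 39 lower in line 36433, 422 and 546 in line 23095, and 344 and 225 between the wildtypes. For the averaged mutant effect it called 556 higher and 527 lower, and for the difference 18 and 39. The authors' deposited tables hold an adjusted p under 0.05 for 1, 0 and 1 member in line 36433, line 23095 and between the wildtypes. Over all genes with an adjusted p there, these were 122 of 21304, 968 of 20846 and 548 of 21762. A call of 1 among 38 members is not read as a result about the list.

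The largest shared displacement lay between the wildtypes of the 2 lines, and not between mutants and wildtypes. In 23095 against 36433 wildtypes, 37 of 38 members had a log2 fold change below 0, where 51.5% of all tested genes did. Their median was -0.35, against -0.015 for all tested genes. In 27 of 38 members, 10 of 19 in replication and 17 of 18 in mitosis, both 23095 wildtypes lay below all 3 of the 36433 wildtypes, and 14.6% of all tested genes did the same. The 17 members lower at an unadjusted p under 0.05 stand beside 6.09% of all tested genes. They were 5 in replication and 12 in mitosis. The 1 member higher at that threshold was mcm6 ENSDARG00000033231, where 7.6% of all tested genes were higher. The number of lower members depended on which libraries were fitted, and it was 6 without 36433 wildtype replicate 2. In that fit 37 of 38 members still lay below 0. Over all tested genes the number at that threshold in either direction also fell, from 2859 of 20886 to 1889 of 20825. Why the number of members fell was not tested. Without 23095 wildtype replicate 1, 35 of 38 members lay below 0. The median was -0.27 without 23095 wildtype replicate 1 and -0.43 without 23095 wildtype replicate 2. No label gives a day of collection or sequencing, so the line and any such batch cannot be told apart. In these bulk tails, fewer dividing cells and less RNA per cell cannot be told apart either.

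Within line 36433, 36 of 38 members lay below 0 in mutants against wildtypes, where 52.3% of all tested genes did. The median was -0.15, against -0.016 for all tested genes, and all 18 mitosis members were below 0. In 12 of 38 members every mutant library lay below every wildtype library (6.28% of all tested genes), and in 0 of 38 every mutant lay above (7.23%). These 12 were aurka, aurkb, bub1ba, ccnb1, ccnd1, gins2, kif11, kif23, mcm3, pcna, plk1 and rrm2 ENSDARG00000078069. The 2 members lower at an unadjusted p under 0.05 were gins2 and that rrm2 identifier, where 2.64% of all tested genes were lower at that threshold. At the same threshold 0 members and 4.11% of all tested genes were higher. Of the members' 95% intervals, 35 of 38 lay within 1 log2 unit of 0 on both sides, and the median standard error was 0.15 log2 units. Without 36433 wildtype replicate 1, 29 of 38 members lay below 0, with a median of -0.116. The count was 32 without 36433 mutant replicate 3 and 33 without 36433 mutant replicate 2. With each library left out in turn, the replication median ranged from -0.17 to -0.039 and the mitosis median from -0.20 to -0.12. This comparison and that between the wildtypes share the 36433 wildtypes, in which 33 of 38 members had the highest mean of the 4 groups, so their directions are not independent.

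In line 23095, 28 of 38 members lay above 0 and 10 below 0 in mutants against wildtypes, where 48.0% of all tested genes lay below 0, with a median of 0.10 against 0.019 for all tested genes. In 5 of 38 (kif23, mcm6 ENSDARG00000057683, mki67, pola1 and ttk) every mutant library lay above both wildtype libraries, against 16.4% of all tested genes, and in 0 of 38 every mutant lay below (17.4%). At an unadjusted p under 0.05, 1 member was higher (mcm6 ENSDARG00000057683), where 7.92% of all tested genes were, and 0 were lower (8.91% of all tested genes). Without the library that stood apart, 23095 mutant replicate 2, 25 of 38 lay above 0 with a median of 0.048. In that fit 0 members were higher and 1 was lower (ccnb3) at an unadjusted p under 0.05 by edgeR. Of all 20827 genes tested there, 3788 passed that threshold in either direction. Groups separate without overlap more easily when they hold fewer libraries. The share of all tested genes that did so was not found with a library left out, so no such count is given. Without 23095 wildtype replicate 1 the count above 0 was 20 of 38 and the median 0.040. Without 23095 wildtype replicate 2 the count was 33 of 38 and the median 0.17. With each library left out in turn the median ranged from 0.0305 to 0.17. Leaving out 1 library of line 23095 turned the direction of 6 to 9 of the 38 members, among them bub1, ccna2, ccnd1, gins2, kif11, mcm3 and mcm4 without mutant replicate 2. This comparison and that between the wildtypes share the 23095 wildtypes, in which 25 of 38 members had the lowest mean of the 4 groups.

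Averaged over both lines, 23 of 38 members and 49.6% of all tested genes lay below 0. The members' median mutant effect was -0.018, against 0.0030 for all tested genes, and 37 of 38 intervals lay within 1 log2 unit of 0. The 1 member lower at an unadjusted p under 0.05 was rrm2 ENSDARG00000078069, where 8.83% of all tested genes were lower, and 0 members were higher (8.57%). The mutant effect in line 23095 minus that in line 36433 was above 0 in 35 of 38 members and below 0 in 3, where 47.2% of all tested genes were below 0. Its median was 0.25, against 0.027 for all tested genes. This difference contains both wildtype groups, with the sign of their comparison reversed. Its direction is therefore not independent of that between the wildtypes. At an unadjusted p under 0.05 the difference was higher in 1 member, the same rrm2 identifier, where 3.34% of all tested genes were higher, and lower in 0 (4.26%). Group means were lowest in the 23095 wildtypes for 25 of 38 members, in the 23095 mutants for 9, in the 36433 mutants for 3 and in the 36433 wildtypes for 1.

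**Figure D1:**
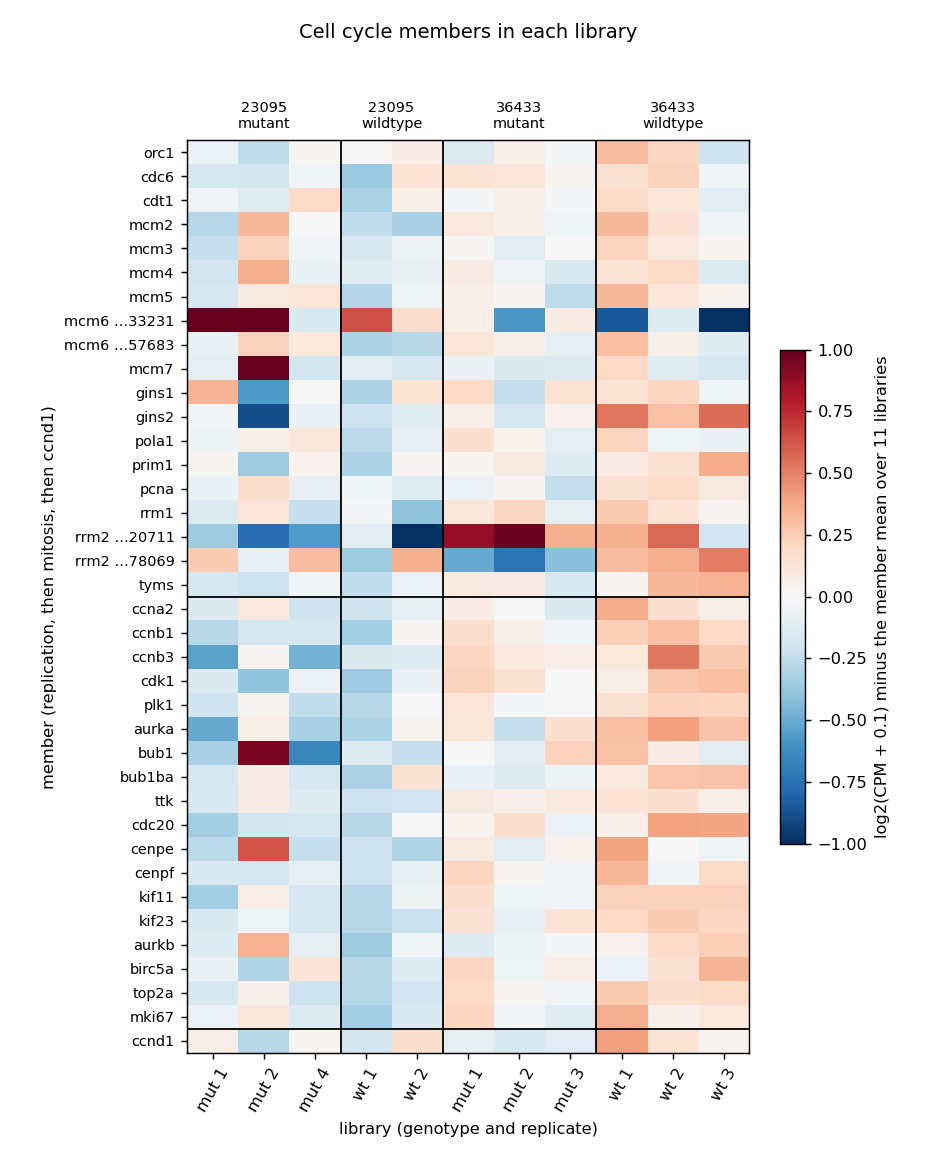
Level of each member in each library, as log2(CPM + 0.1) minus that member's mean over the 11 libraries (colour, limited to -1 and 1), with replication members above mitosis members and ccnd1 last, and libraries in columns by group. The 36433 wildtype columns are mostly red, holding the highest group mean for 33 of 38 members. The column of 23095 mutant replicate 2 departs from its neighbours in both directions, and the identifiers of rrm2 and mcm6 differ from each other.

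Origin licensing is covered by 10 identifiers, of orc1 (the largest subunit of the origin recognition complex), cdc6, cdt1 and the helicase subunits mcm2 to mcm7. Between the wildtypes 9 of 10 lay below 0 with a median of -0.20, in line 36433 9 of 10 lay below 0 with a median of -0.10, and in line 23095 8 of 10 lay above 0 with a median of 0.17. The median in line 36433 was -0.013 without 36433 wildtype replicate 1. The median in line 23095 was 0.072 without 23095 mutant replicate 2 and 0.26 without 23095 wildtype replicate 2. The helicase gene mcm2 had 159, 243 and 193 CPM in the 23095 mutants, 163 and 155 in the 23095 wildtypes, 207, 201 and 188 in the 36433 mutants, and 243, 214 and 188 in the 36433 wildtypes. Both 23095 wildtypes lay below every 36433 wildtype in mcm2, while the mutants of both lines overlapped their wildtypes. Its log2 fold change was -0.44 ± 0.18 (SE) between the wildtypes (edgeR, adjusted p = 0.314), 0.32 in line 23095 and -0.12 in line 36433. Without 23095 mutant replicate 2 it was 0.145 in line 23095.

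The main mcm6 identifier, ENSDARG00000057683, had 175, 215 and 196 CPM in the 23095 mutants, 147 and 151 in the 23095 wildtypes, 199, 191 and 171 in the 36433 mutants, and 225, 190.4 and 167 in the 36433 wildtypes. All 3 of the 23095 mutants exceeded both 23095 wildtypes, and the 36433 groups overlapped. The log2 fold change was 0.39 ± 0.16 (SE) in line 23095 (edgeR, adjusted p = 0.249), -0.054 in line 36433 and -0.38 between the wildtypes. Without 23095 mutant replicate 2 the effect in line 23095 was 0.31. The other mcm6 identifier, ENSDARG00000033231, was near the limit of detection, with 2.15, 1.94 and 0.790 CPM in the 23095 mutants, 1.45 and 1.02 in the 23095 wildtypes, 0.937, 0.563 and 0.941 in the 36433 mutants, and 0.449, 0.807 and 0.256 in the 36433 wildtypes. It was the only member above 0 between the wildtypes (1.29 ± 0.57, SE; edgeR, adjusted p = 0.343), a value that rests on 4 to 36 counts per library. With both mcm6 identifiers summed, the fold change was 0.39 in line 23095 and -0.37 between the wildtypes on the log2 scale.

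Of the other licensing genes, orc1, cdc6 and cdt1 had log2 fold changes from -0.22 to -0.08 between the wildtypes, from -0.15 to -0.03 in line 36433 and from -0.13 to 0.14 in line 23095. Helicase subunit mcm7 had 109, 231 and 102 CPM in the 23095 mutants, against 108 and 103 in the 23095 wildtypes. Its effect in that line, 0.48, was 0.0014 without replicate 2, whose value is the highest of the 3 mutants. The subunits mcm3, mcm4 and mcm5 lay between -0.33 and -0.17 between the wildtypes and between -0.21 and -0.11 in line 36433, and above 0 in line 23095 (0.11 to 0.18). Without 23095 mutant replicate 2 the effects in line 23095 were -0.0165 for mcm3, -0.025 for mcm4 and 0.14 for mcm5.

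The replication fork members are gins1 and gins2 (subunits of the GINS helicase activator), pola1 (the catalytic subunit of DNA polymerase alpha), prim1 (the primase subunit that makes RNA primers) and pcna. All 5 lay below 0 in line 36433, with a median of -0.21, where 52.3% of all tested genes did. All 5 also lay below 0 between the wildtypes, with a median of -0.22, in a comparison that shares the 36433 wildtypes with the first. For gins2 the libraries held 6.68, 3.63 and 6.49 CPM in the 23095 mutants, 5.87 and 6.24 in the 23095 wildtypes, 7.11, 6.00 and 7.02 in the 36433 mutants, and 9.87, 8.34 and 10.0 in the 36433 wildtypes. The 36433 wildtypes held the 3 highest values of gins2, apart from every other library. Its log2 fold change was -0.49 ± 0.22 (SE) in line 36433 and -0.64 ± 0.25 (SE) between the wildtypes, with adjusted p = 0.725 and 0.281 by edgeR, and -0.081 in line 23095.

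Primase prim1 had 29.8, 22.8 and 29.9 CPM in the 23095 mutants, 23.6 and 29.6 in the 23095 wildtypes, 29.6, 31.0 and 26.7 in the 36433 mutants, and 30.9, 32.5 and 37.8 in the 36433 wildtypes. The 23095 wildtypes lay below the 36433 wildtypes, with a log2 fold change of -0.35 ± 0.18 (SE), and mutants overlapped wildtypes in both lines. Polymerase subunit pola1 had 98.5, 106 and 110.2 CPM in the 23095 mutants, 85.3 and 96.1 in the 23095 wildtypes, 115, 105 and 95.3 in the 36433 mutants, and 119, 98.99 and 97.3 in the 36433 wildtypes. In line 23095 all 3 mutants of pola1 exceeded both wildtypes (0.21 ± 0.15, SE, log2), while in line 36433 the groups overlapped (-0.0051). Neither gene was called in any comparison, and the smallest adjusted p of the 2 genes by edgeR was 0.414. The clamp pcna lay lower in all 3 of the 36433 mutants than in any 36433 wildtype (337, 355 and 297 CPM, against 387, 401 and 372 CPM), a difference of -0.23 ± 0.13 (SE) on the log2 scale. The remaining fork member, gins1, ran from 7.51 to 14.3 CPM, with its lowest value in 23095 mutant replicate 2.

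Nucleotide supply is represented by rrm1 and rrm2, the large and small subunits of ribonucleotide reductase, and by tyms, thymidylate synthase. Identifier ENSDARG00000078069 of rrm2 had 74.1, 62.9 and 78.9 CPM in the 36433 mutants, against 130.3, 135 and 149.6 CPM in the 36433 wildtypes. It had 126, 99.1 and 130.2 CPM in the 23095 mutants, against 82.2 and 135 CPM in the 23095 wildtypes. Only the 36433 mutants stood wholly below their wildtypes, and the groups of line 23095 overlapped. The log2 fold change was -0.94 ± 0.18 (SE) in line 36433, with an adjusted p of 0.0795 by edgeR, and 0.13 ± 0.20 (SE) in line 23095. The difference between these effects was 1.07 ± 0.28 (SE), with an adjusted p of 0.407 by edgeR. The call in line 36433 turned on the method: the adjusted p was 0.000805 with DESeq2, 0.0324 with edgeR fitted to that line alone, and 0.0397 or 0.0409 with edgeR without 23095 wildtype replicate 1 or 2. In the authors' deposited table the same identifier has a log2 fold change of -0.86 and an adjusted p of 0.000824.

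The other rrm2 identifier, ENSDARG00000020711, ran the opposite way in line 36433, with 128, 141 and 88.7 CPM in 36433 mutants, against 88.3, 103 and 60.5 CPM in 36433 wildtypes (0.51 ± 0.27, SE, log2; edgeR, adjusted p = 0.781). It had 54.0, 40.8 and 46.6 CPM in the 23095 mutants, against 64.1 and 29.8 CPM in the 23095 wildtypes. The 36433 mutants overlapped their wildtypes at this identifier, and 2 of them held the highest values of all libraries. It took 63.2%, 69.2% and 52.9% of the counts of both rrm2 identifiers in the 36433 mutants, and 40.4%, 43.1% and 28.8% in the 36433 wildtypes. In the 23095 mutants it took 30.1%, 29.2% and 26.3%, and in the 23095 wildtypes 43.8% and 18.1%. The share of ENSDARG00000020711 was higher in each 36433 mutant than in any other library.

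With the counts of both identifiers summed, rrm2 had 201.6, 204 and 168 CPM in the 36433 mutants, against 219, 238 and 210.2 CPM in the 36433 wildtypes. The sums were 179.6, 139.9 and 176.7 CPM in the 23095 mutants, against 146 and 164 CPM in the 23095 wildtypes. The summed levels still separated mutants from wildtypes in line 36433, by less: the log2 fold change was -0.22 ± 0.14 (SE; edgeR, adjusted p = 0.813). Between the wildtypes the sum differed by -0.52 ± 0.16 on the log2 scale (SE; edgeR, adjusted p = 0.173). Reads of near-identical copies can be shared or assigned to either, so the values of the single rrm2 identifiers are uncertain, and how the authors' counting treated such reads was not given in the sources used here.

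**Figure D2:**
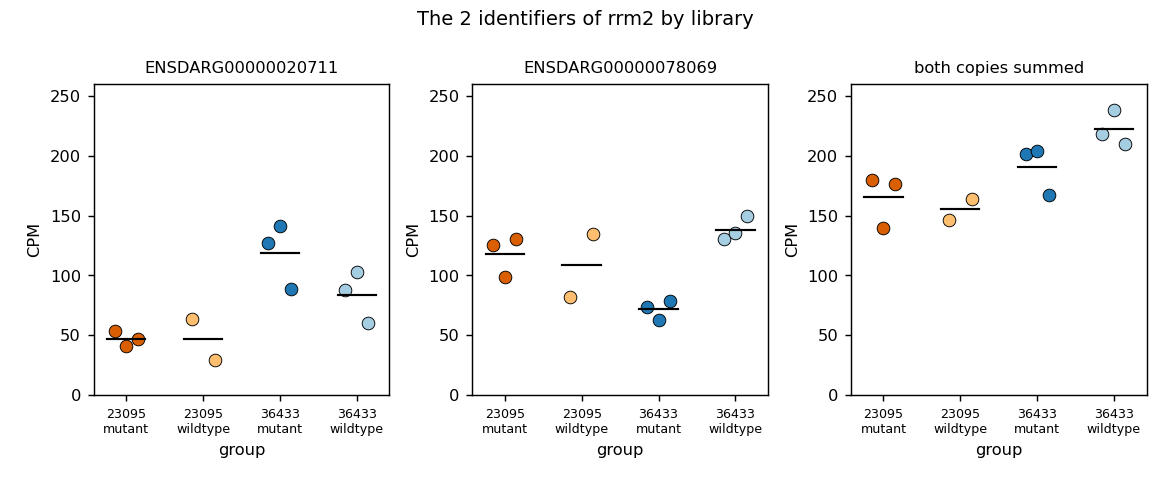
CPM of the 2 identifiers of rrm2 and of their sum in each library (points), by group, with the group mean as a line. At ENSDARG00000078069 the 36433 mutants (62.9 to 78.9 CPM) lie below every other library, at ENSDARG00000020711 both 36433 groups lie mostly above line 23095, and in the sum the 36433 mutants lie just under the 36433 wildtypes.

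Thymidylate synthase, tyms, had 20.6, 20.2 and 22.9 CPM in the 23095 mutants, 19.6 and 22.4 in the 23095 wildtypes, 24.8, 24.7 and 20.8 in the 36433 mutants, and 23.6, 29.1 and 29.7 in the 36433 wildtypes. The 23095 wildtypes lay below the 36433 wildtypes, with a log2 fold change of -0.39 ± 0.16 (SE) (edgeR, adjusted p = 0.319), and mutants overlapped wildtypes in both lines. The large subunit rrm1 differed by -0.34 ± 0.17 (SE, log2) between the wildtypes, by -0.063 in line 36433 and by 0.12 in line 23095, none of them called. Without 23095 mutant replicate 2 the rrm1 effect in line 23095 was 0.011.

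Among cyclins and entry kinases, 6 of 6 members were lower between the wildtypes at an unadjusted p under 0.05, with no overlap between the wildtype groups in any of them and a median of -0.41. Over all tested genes 6.09% were lower at that threshold and 14.6% were lower without overlap. None of the 6 passed after adjustment. For ccnb1, a cyclin B that activates Cdk1 at mitotic entry, the levels were 86.5, 93.4 and 94.1 CPM in the 23095 mutants, 83.1 and 106 in the 23095 wildtypes, 118, 109 and 103 in the 36433 mutants, and 124, 129 and 120.2 in the 36433 wildtypes. The 36433 wildtypes lay above every library of the other 3 groups. The log2 fold change of ccnb1 was -0.40 ± 0.15 (SE) between the wildtypes (edgeR, adjusted p = 0.251), -0.17 ± 0.13 in line 36433 and -0.047 ± 0.15 in line 23095.

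Its kinase partner cdk1 had 56.2, 47.3 and 59.4 CPM in the 23095 mutants, 48.3 and 59.4 in the 23095 wildtypes, 72.9, 69.1 and 61.8 in the 36433 mutants, and 65.0, 74.8 and 76.5 in the 36433 wildtypes. Levels of cdk1 were lower in the 23095 wildtypes than in the 36433 wildtypes, with a log2 fold change of -0.42 ± 0.16 (SE), and overlapped between mutants and wildtypes of both lines. Cyclin gene ccnb3 had 19.7, 29.0 and 20.5 CPM in the 23095 mutants, 25.8 and 26.1 in the 23095 wildtypes, 32.9, 30.5 and 29.8 in the 36433 mutants, and 30.7, 41.2 and 34.2 in the 36433 wildtypes. For ccnb3 the highest value was that of 36433 wildtype replicate 2, and 2 of the 23095 mutants lay below both of their wildtypes. Its mutant effect averaged over both lines was -0.18 ± 0.13 (SE) and its difference between the wildtypes -0.45 ± 0.19 (SE), both on the log2 scale. Without 23095 mutant replicate 2 the ccnb3 effect in line 23095 was -0.37 ± 0.16 (SE; edgeR, adjusted p = 0.252). The last of the group with values shown, aurka, encodes the Aurora A kinase of the centrosome and had 20.5, 30.3 and 23.3 CPM in the 23095 mutants, 23.4 and 29.7 in the 23095 wildtypes, 31.4, 24.8 and 32.5 in the 36433 mutants, and 35.8, 38.7 and 35.5 in the 36433 wildtypes. All 3 of the 36433 mutants lay below all of their wildtypes, with log2 fold changes of -0.31 ± 0.17 (SE) in line 36433 and -0.47 ± 0.19 (SE) between the wildtypes (edgeR, adjusted p = 0.79 and 0.309). The Polo kinase gene plk1 and the cyclin gene ccna2 differed by -0.33 and -0.35 between the wildtypes and by -0.16 and -0.22 in line 36433.

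The spindle checkpoint and anaphase members are bub1, bub1ba and ttk, kinases or kinase relatives of the checkpoint at unattached kinetochores, and cdc20, the activator of the anaphase-promoting complex. All 4 lay below 0 in line 36433 (median -0.14) and, in the comparison that shares the same 36433 wildtypes, between the wildtypes (median -0.31). The levels of cdc20 were 57.4, 64.4 and 65.0 CPM in the 23095 mutants, 60.5 and 73.3 in the 23095 wildtypes, 75.1, 81.8 and 70.2 in the 36433 mutants, and 76.0, 96.8 and 96.2 in the 36433 wildtypes. Between the wildtypes cdc20 did not overlap (-0.42 ± 0.16, SE, log2; edgeR, adjusted p = 0.264), and 1 of the 36433 wildtypes lay among the 36433 mutants. For ttk the levels were 52.0, 60.9 and 52.9 CPM in the 23095 mutants, 50.2 and 50.8 in the 23095 wildtypes, 61.6, 59.98 and 62.0 in the 36433 mutants, and 63.5, 64.8 and 60.7 in the 36433 wildtypes. Every other library lay above both 23095 wildtypes.

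Checkpoint gene bub1ba had 19.7, 23.2 and 19.6 CPM in the 23095 mutants, 17.7 and 24.4 in the 23095 wildtypes, 21.1, 20.2 and 21.3 in the 36433 mutants, and 23.7, 26.7 and 26.9 in the 36433 wildtypes. Its 36433 mutants lay below its 36433 wildtypes without overlap, with a log2 fold change of -0.30 ± 0.15 (SE) (edgeR, adjusted p = 0.763), and the wildtypes of the 2 lines overlapped. For bub1, 23095 mutant replicate 2 stood at 110.1 CPM and the other 23095 mutants at 45.6 and 36.3 CPM. The bub1 effect in line 23095 was 0.34 with that library and -0.30 without it.

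Members of the kinetochore, spindle motors and passenger complex are cenpe and cenpf (proteins of the outer kinetochore), kif11 (the motor that separates the spindle poles), kif23 (a motor of the central spindle), and aurkb and birc5a (Aurora B and a survivin, of the chromosomal passenger complex). In all 6, both 23095 wildtypes lay below all 36433 wildtypes, where 14.6% of all tested genes did, and the median was -0.37. The member with the smallest p between the wildtypes was kif23, with 73.5, 79.0 and 72.0 CPM in the 23095 mutants, 67.3 and 69.8 in the 23095 wildtypes, 90.3, 77.4 and 89.6 in the 36433 mutants, and 93.4, 97.2 and 94.3 in the 36433 wildtypes. For kif23 both 23095 wildtypes were the lowest of all 11 libraries and the 3 libraries of the 36433 wildtypes the highest. Its log2 fold change between the wildtypes was -0.47 ± 0.14 (SE; 95% interval -0.76 to -0.18), with an adjusted p of 0.143 by edgeR and 0.0239 with DESeq2. The authors' deposited table gives -0.45 and an adjusted p of 0.0278. In line 36433 every kif23 value of the mutants was below those of the wildtypes (-0.15 ± 0.12, SE), and in line 23095 every one was above (0.12 ± 0.14, SE), neither called.

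Spindle motor gene kif11 had 129, 169.8 and 145 CPM in the 23095 mutants, 135 and 157 in the 23095 wildtypes, 185, 159 and 159 in the 36433 mutants, and 191, 192 and 192 in the 36433 wildtypes. The 36433 wildtypes varied little and lay above every other library, with log2 fold changes of -0.39 ± 0.16 (SE) between the wildtypes and -0.19 ± 0.14 (SE) in line 36433. For cenpe the levels were 193, 360.2 and 197 CPM in the 23095 mutants, 201 and 188 in the 23095 wildtypes, 248, 215 and 239.6 in the 36433 mutants, and 305, 232 and 226 in the 36433 wildtypes. A single library, 23095 mutant replicate 2, was the highest of all, and the cenpe effect in line 23095 was 0.36 with it and 0.0010 without it. The genes cenpf, aurkb and birc5a differed by -0.31, -0.35 and -0.36 between the wildtypes, by -0.10, -0.22 and -0.074 in line 36433, and by 0.0038, 0.25 and 0.14 in line 23095. Without 23095 mutant replicate 2 the effect in line 23095 was 0.082 for aurkb and 0.24 for birc5a.

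Chromosome structure is represented by top2a, the topoisomerase that untangles replicated chromosomes, and mki67, the proliferation antigen that coats mitotic chromosomes. The levels of top2a were 302, 349 and 292 CPM in the 23095 mutants, 276 and 295 in the 23095 wildtypes, 384, 341 and 329 in the 36433 mutants, and 403, 376 and 383 in the 36433 wildtypes. Those of mki67 were 459.9, 519.8 and 436 CPM in the 23095 mutants, 378 and 433 in the 23095 wildtypes, 558, 469 and 440.5 in the 36433 mutants, and 619, 496 and 515 in the 36433 wildtypes. In both genes the 23095 wildtypes lay below the 36433 wildtypes, and the 36433 mutants overlapped their wildtypes. The 23095 mutants lay above both of their wildtypes in mki67 and overlapped them in top2a. The log2 fold change between the wildtypes was -0.44 ± 0.15 (SE) for top2a and -0.42 ± 0.17 (SE) for mki67, with adjusted p of 0.206 and 0.293 by edgeR. The mutant effects averaged over both lines were -0.0017 ± 0.098 and 0.033 ± 0.11 (SE), with 95% intervals of -0.21 to 0.21 and -0.21 to 0.28.

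In G1, ccnd1 (the cyclin D that starts phosphorylation of the retinoblastoma proteins) had 311, 245 and 302 CPM in the 23095 mutants, 262 and 332 in the 23095 wildtypes, 280.3, 266 and 275 in the 36433 mutants, and 395, 328 and 304 in the 36433 wildtypes. Its 36433 mutants lay below its 36433 wildtypes without overlap, with a log2 fold change of -0.32 ± 0.15 (SE) (edgeR, adjusted p = 0.754). The wildtypes of the 2 lines overlapped, as did the groups of line 23095.

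**Figure D3:**
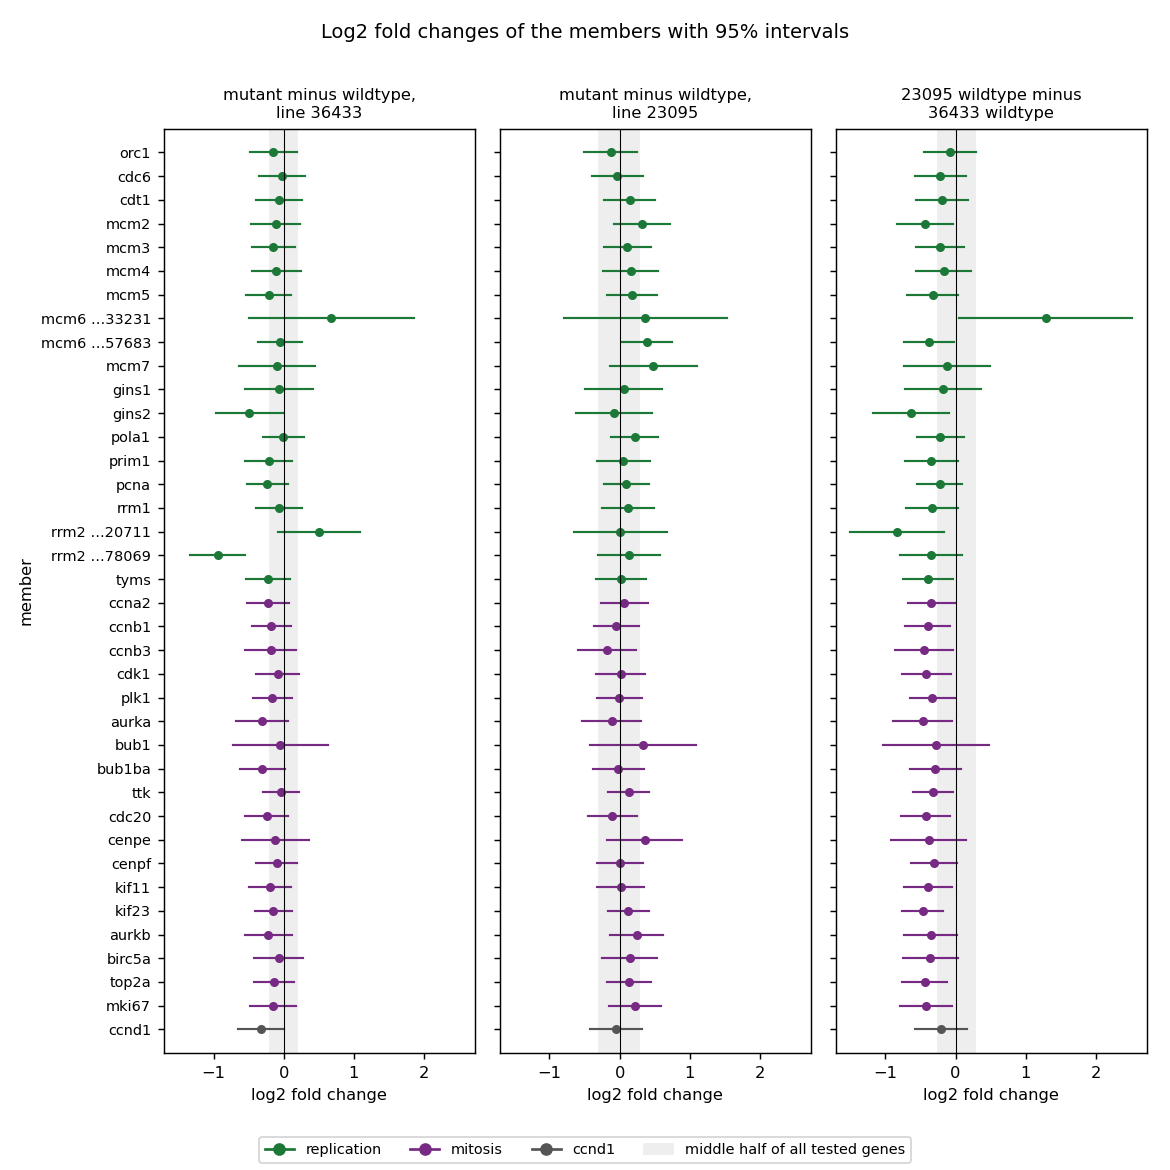
Log2 fold change of each member (point) with its 95% interval (bar) in 3 panels: mutant minus wildtype in line 36433, mutant minus wildtype in line 23095, and 23095 wildtype minus 36433 wildtype. Replication members are green, mitosis members purple and ccnd1 grey, and the grey band spans the middle 50% of all tested genes. In the panel of the wildtypes 37 of 38 points lie left of 0, with a median of -0.35, and in the left panel 36 of 38 do.

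Replication and mitosis members can be set side by side as the mean log2 CPM over each list in each library. Replication members averaged 5.76, 5.79 and 5.75 in the 23095 mutants, 5.61 and 5.67 in the 23095 wildtypes, 5.85, 5.77 and 5.71 in the 36433 mutants, and 5.96, 5.94 and 5.75 in the 36433 wildtypes. Mitosis members averaged 6.12, 6.42 and 6.15 in the 23095 mutants, 6.08 and 6.26 in the 23095 wildtypes, 6.47, 6.33 and 6.37 in the 36433 mutants, and 6.55, 6.56 and 6.54 in the 36433 wildtypes. The mitosis mean of every 36433 wildtype lay above that of every other library, while the replication mean of 36433 wildtype replicate 3 lay among those of the mutants.

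Subtracting the mitosis mean from the replication mean gave -0.36, -0.63 and -0.40 in the 23095 mutants, -0.47 and -0.58 in the 23095 wildtypes, -0.62, -0.56 and -0.65 in the 36433 mutants, and -0.59, -0.62 and -0.79 in the 36433 wildtypes. The mutants overlapped the wildtypes in both lines, and the 23095 wildtypes, at -0.47 and -0.58, were both above the 36433 wildtypes. That order is not firm, since 23095 wildtype replicate 2 stood at -0.583 and 36433 wildtype replicate 1 at -0.591. The replication mean also includes mcm6 ENSDARG00000033231, which held only 4 to 36 counts per library. Between the wildtypes the median log2 fold change was -0.22 over the replication members and -0.39 over the mitosis members. The medians were -0.11 and -0.16 in line 36433 and 0.12 and 0.042 in line 23095. Without 23095 mutant replicate 2 those of line 23095 were 0.12 and -0.013.

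Other genes of the same processes, from wider lists that leave out the members, are read here by counts, with 0 called in any comparison by edgeR. Of 47 other DNA replication genes, 46 lay below 0 between the wildtypes with a median of -0.29, and 15 were lower at an unadjusted p under 0.05, with 0 higher. Over all tested genes 51.5% lay below 0, 6.09% were lower and 7.6% higher at that threshold. The 3 with the smallest p were rpa2 (a subunit of the single-strand binding complex), rfc2 (of the clamp loader) and dut (the dUTPase). Their log2 fold changes were -0.54 ± 0.15, -0.53 ± 0.16 and -0.54 ± 0.18 (SE), with adjusted p of 0.133, 0.166 and 0.192 by edgeR. Both 23095 wildtypes lay below all 36433 wildtypes in 34 of the 47, where 14.6% of all tested genes did. In line 36433, 45 of these 47 lay below 0 with a median of -0.16, where 52.3% of all tested genes did, and 3 were lower at an unadjusted p under 0.05 (2.64% of all tested genes). In line 23095, 32 of 47 lay above 0 with a median of 0.13, and 3 were higher at an unadjusted p under 0.05 (7.92% of all tested genes). In 13 of 47 every 23095 mutant lay above both 23095 wildtypes, and 16.4% of all tested genes did the same. For the mutant effect averaged over both lines the smallest p belonged to dhfr (dihydrofolate reductase), rfc5 (of the clamp loader) and orc2 (of the origin recognition complex), at -0.24, -0.22 and 0.33 on the log2 scale, none of them called.

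Of 69 other mitosis genes, 65 lay below 0 between the wildtypes with a median of -0.32, and 21 were lower at an unadjusted p under 0.05 (6.09% of all tested genes), with 0 higher (7.6%). Between the wildtypes the smallest p belonged to pttg1 (securin), with 8.80 ± 0.40 CPM in the 23095 wildtypes and 15.9 ± 0.82 CPM in the 36433 wildtypes (SD, n = 2 and 3). Its log2 fold change was -0.85 ± 0.20 (SE), with an adjusted p of 0.0831 by edgeR. The passenger complex gene cdca8 (borealin) and the checkpoint gene bub1bb followed at -0.62 ± 0.15 and -0.56 ± 0.17 (SE; edgeR, adjusted p = 0.0923 and 0.165). The wildtypes of the 2 lines did not overlap, with 23095 lower, in 46 of the 69, where 14.6% of all tested genes did the same. In line 36433, 56 of 69 lay below 0 with a median of -0.12, and 4 were lower at an unadjusted p under 0.05 (2.64% of all tested genes). In line 23095, 46 of 69 lay above 0 with a median of 0.046, and 2 were higher and 1 lower at that threshold (7.92% and 8.91% of all tested genes). Averaged over both lines the smallest p belonged to mad1l1, nek2 and cdc25d, at 0.29, -0.30 and -0.76 on the log2 scale, none of them called. The value of cdc25d has an SE of 0.35 and rests on low group means, from 0.84 to 1.76 CPM.

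Of 30 genes of G1 and its control, 20 lay below 0 between the wildtypes with a median of -0.13, with 2 higher and 1 lower at an unadjusted p under 0.05. Those counts are no larger a share than the 7.6% higher and 6.09% lower of all tested genes. The 3 with the smallest p were rbl2 (a retinoblastoma relative), skp2 (an F-box protein that targets p27) and cdkn1a (the inhibitor p21), at 1.03 ± 0.28, -0.59 ± 0.18 and 1.05 ± 0.49 (SE, log2). Their adjusted p by edgeR was 0.131, 0.164 and 0.365. In line 36433 the median of this list was -0.0031, and in line 23095 it was 0.13. The smallest p of the averaged mutant effect belonged to myca (a Myc gene), cdkn1ca (a Cdk inhibitor) and tfdp1a (an E2F partner), at 0.31, 0.23 and 0.17 on the log2 scale, none of them called. The names myca and tfdp1a each matched 2 identifiers by their human-style symbol, so which copy is meant is not settled. The values given are those of ENSDARG00000007241 and ENSDARG00000019293.

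Markers of cell types in the tail differed between the same libraries. Skeletal muscle markers (19 identifiers, none at 0 in any library) summed to 39180 and 45530 CPM in the 23095 wildtypes, against 20130 to 30120 CPM in the 36433 wildtypes. The sums were 16020 to 29640 CPM in the 23095 mutants and 21440 to 30700 CPM in the 36433 mutants. The 23095 wildtypes thus lay above every other library in muscle markers, 18 of which were above 0 between the wildtypes, with a median of 0.82. Markers of the tailbud and presomitic mesoderm (17 identifiers, none at 0) summed to 139 and 171 CPM in the 23095 wildtypes, against 211 to 269 CPM in the 36433 wildtypes. They summed to 251 to 380 CPM in the 23095 mutants and 243 to 288 CPM in the 36433 mutants, and 16 of 17 lay below 0 between the wildtypes, with a median of -1.0.

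In line 23095, mutants against wildtypes, 5 tailbud markers were called higher and 3 muscle markers lower, with medians of 1.38 and -0.80, where 1.63% of all tested genes were called in either direction. These calls depended on the fit. With edgeR fitted to line 23095 alone, 4 of 20074 genes were called higher and 2 lower, fewer than these markers in each direction. Without 23095 mutant replicate 4, 10 of 20782 genes were called higher and 14 lower. Which markers were called in those fits is not given here. Averaged over both lines, 3 tailbud markers were called higher, and 1 muscle and 1 neuronal marker lower (edgeR, adjusted p under 0.05), where 2.33% of all tested genes were called. In line 36433 alone 0 tailbud, muscle or neuronal markers were called, where 0.168% of all tested genes were. Their medians there were 0.22, 0.032 and -0.19. Erythroid markers (10 identifiers) summed to 797 to 1449 CPM in the 23095 mutants, 327 and 1278 in the 23095 wildtypes, 1046 to 1389 in the 36433 mutants and 1006 to 1725 in the 36433 wildtypes. Neuronal markers (17 identifiers) summed to 263 to 349 CPM in the 23095 mutants, 325 and 335 in the 23095 wildtypes, 259 to 288 in the 36433 mutants and 232 to 365 in the 36433 wildtypes. The sums of both lists overlapped between all 4 groups except that the neuronal sums of the 23095 wildtypes lay above those of the 36433 mutants. Between the wildtypes 10 of 10 erythroid markers lay below 0 with a median of -0.70, 11 of 12 posterior hox markers with a median of -0.28, 5 of 6 tested head markers with a median of -0.41, and 4 of 17 neuronal markers with a median of 0.14. In line 36433 the erythroid markers were also below 0 in 10 of 10, with a median of -0.28, and in line 23095 the posterior hox markers lay above 0 in 11 of 12, with a median of 0.23. The 10 most abundant genes took 19.2% and 17.4% of counts in the 23095 wildtypes and 13.3% to 15.05% in the other 9 libraries. The part of muscle, tailbud, erythroid and posterior hox content in the displacement of the cell cycle members was not tested.

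**Figure D4:**
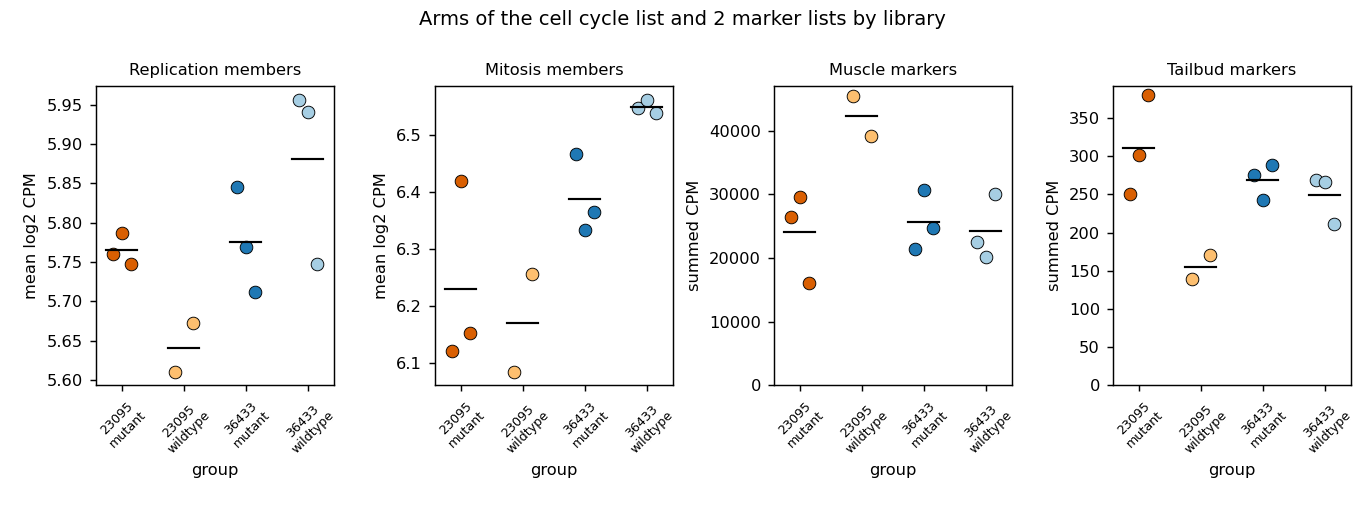
Mean log2 CPM of the replication and of the mitosis members, and summed CPM of the muscle and of the tailbud markers, in each library (points) by group, with the group mean as a line. The axes of the log2 panels do not start at 0. The 2 libraries of the 23095 wildtypes are the lowest of the replication panel and of the tailbud panel and the highest of the muscle panel, and the 3 libraries of the 36433 wildtypes are the highest of the mitosis panel.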

How the data were processed

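RNA from 11 pools of zebrafish tails was sequenced as stranded total RNA after removal of ribosomal RNA, per the labels' protocols. Cutadapt 1.16, STAR 2.7.2c, DESeq2 1.22.2 and build GRCz11 stand in the submitters' processing notes with no role. Neither the counting tool nor the annotation is given in the sources used here. Raw counts per Ensembl gene identifier and library were deposited by the authors. Their deposited comparison tables hold log2 fold changes, per the file headers, and adjusted p-values for each gene, per the file headers. One of 3 such tables used here has a line number with an extra digit in its name. It was read as 23095 against 36433 wildtypes, since its fold changes had r = 0.853 with those found here across genes. Tables that compare mutants across lines were not used.

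Groups follow the labels. Counts were scaled by TMM, filtered with filterByExpr (minimum count 10, total 15) and tested by edgeR's two-sided quasi-likelihood F-test (version 4.0.16, glmQLFit with glmQLFTest, under R 4.3.3) as 1 model with a mean for each of 4 groups (11 libraries, 7 residual degrees of freedom). P-values were adjusted after Benjamini and Hochberg across the 20886 genes, and called means below 0.05. Standard errors came from the F statistic and intervals cover 95%. DESeq2 1.42.0, other scalings and filters, each line or wildtype pair fitted alone, the replicate number as a block, and each library left out in turn were alternatives. Mean log2 CPM used a prior count of 2. The fit was tested on simulated counts whose changes were larger than any difference of a member. That test does not measure how well differences of the members' size are found. A two-sided exact rank test of 3 against 3 libraries could not go below 0.1, nor of 3 against 2 below 0.2.

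Members were matched by symbol, and 245 of 273 symbols over all lists had an identifier. The members and lists, including 3 wider lists and 6 marker lists, were chosen with earlier results of these data known. Library values were given for up to 2 members per role with the smallest p in the averaged mutant effect and between the wildtypes, and wider genes were named by the same measure, up to 3 per list. Library values of mcm7, pcna and bub1 were added after they had been seen, as was the sum of the copies of rrm2 and mcm6. No sequence or coordinate is given, since no genome of the build was used here.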

Additional observations from a re-analysis of the deposited data

Results flagged for a closer look

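The mutant effect on kdm1a, the gene of Lsd1, was 2.2 log2 units apart in the 2 lines (line 23095 minus line 36433; edgeR, adjusted p = 0.00407). It was 0.11 in line 23095 and -2.1 in line 36433. No member of the cell cycle list had such a difference at an adjusted p under 0.05 by edgeR or DESeq2, and edgeR gave 1 at an unadjusted p under 0.05, rrm2 ENSDARG00000078069. No group held enough libraries for a single library to be tested as apart from its group.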

How the results depend on the processing

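Over the alternatives run, 1140 recomputed counts, medians and list differences stayed close to the reported value (medians and differences within 1 SD between replicates, counts by their ratio), and 39 moved further. The larger number includes fits that left out a library of a group outside the comparison. Such fits could hardly move the value, so these totals do not measure how stable the results are. DESeq2 called 1 member in line 36433 and 1 between the wildtypes, and the fit of only the groups compared called 1 in line 36433. Over all 20886 genes DESeq2 called 85 higher and 39 lower in line 36433, and 344 and 225 between the wildtypes. The fit of only the groups compared called 21 higher and 11 lower of 19377 genes in line 36433. The count of members lower between the wildtypes at an unadjusted p under 0.05 was 10 with only those groups fitted, 11 with the replicate block, and 3 to 21 with a library left out. The fits that leave libraries out also hold fewer of them, and the cause of the changed counts was not tested. Members called in line 36433 numbered 0 to 1 with a library left out.

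Scaling by library totals alone moved the median of all tested genes in line 23095 to 0.143, against 0.0187 with TMM. Under it the medians in line 23095 were 0.236 for replication, 0.162 for mitosis, 0.216 for all members, 0.194 for the replication fork, 0.193 for nucleotide supply, 0.0904 for cyclins and entry kinases and 0.259 for kinetochore, spindle motors and passenger complex. The averaged mutant effect became 0.0917 for replication and 0.0637 for all members.

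With each library left out in turn, medians in line 23095 ranged from 0.062 to 0.23 for replication, -0.020 to 0.15 for mitosis, -0.097 to 0.23 for the replication fork, -0.16 to 0.13 for cyclins and entry kinases, -0.11 to 0.18 for the spindle checkpoint, and -0.21 to 0.13 for ccnd1. The difference between the lines' mutant effects ranged from 0.20 to 0.34 for replication, 0.16 to 0.33 for all members, 0.11 to 0.36 for origin licensing, 0.14 to 0.37 for the replication fork, 0.013 to 0.31 for cyclins and entry kinases, and 0.11 to 0.45 for ccnd1. Between the wildtypes the range was -0.39 to -0.17 for replication, -0.43 to -0.27 for all members, -0.42 to -0.19 for the replication fork, -0.53 to -0.29 for cyclins and entry kinases, and -0.39 to -0.044 for ccnd1. Most of these extremes came without 1 of the 2 libraries of the 23095 wildtypes, where the remaining library is assumed to vary like the other groups.

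Replicate numbers are shared between groups, but the labels do not say that they mark pairs, and they were not read as pairs. Same-numbered libraries of line 36433 correlated at 0.2, 0.0805 and 0.0182 in their deviations from the group means. Those of line 23095 correlated at -0.0779 and -0.183. With only 2 wildtypes in line 23095 their deviations mirror each other, so these values cannot decide whether the numbers mark pairs. Not every library correlated best with its own number. With the replicate block 0 members were called in any comparison.

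At 2 or 3 libraries a group, the median standard error of a member was 0.151 log2 units in line 36433 and 0.17 in line 23095 and between the wildtypes. Differences several times that size also missed the threshold, among them -0.94 ± 0.18 for rrm2 ENSDARG00000078069 in line 36433 and -0.47 ± 0.14 for kif23 between the wildtypes (SE). The member mcm6 ENSDARG00000033231, with 4 to 36 counts a library, is limited by depth.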
